A study of Ovis aries with 6 samples.

Results

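The genes that bring cysteine into the skin and handle its thiol group were examined in fine and coarse wool sheep. They were taken by symbol, and the 10 symbols were SLC7A11, SLC3A2, CBS, CTH, CDO1, GCLC, GCLM, GSS, TXNRD1 and QSOX1. All 10 were found among the 28394 genes of the files, and all 10 were among the 15320 genes that reached 10 counts in 3 or more sheep. Skin RNA came from 3 Super Merino (SM) ewes of fine wool (sheep 128, 30034 and 30126) and from 3 Small Tail Han (STH) ewes of coarse wool (sheep XW3, XW5 and XW8). Wool was shaved behind the shoulder blade and whole skin was taken in mid-October, when the follicles were thought to be growing, from ewes on a shared farm and diet. The sample labels give an age of 9 months for all 6 ewes, whereas the study's methods give a younger age. Total counts per library ranged from 28870583 to 44645091, so that 3 counts corresponded to between 0.0672 and 0.104 CPM, the count scaled to library size, a floor that covers counting error only. The lowest count of any of the 10 genes in any sheep was 127. The breed comparison leaned on single sheep. The test used here called 0 genes with all 6 sheep, 1175 without SM 128 and at most 3 without any other sheep. The counts themselves set SM 30126 farthest from its breed, with a chi-square per degree of freedom of 155 against SM 128 and 102 against SM 30034, while SM 128 and 30034 were closer, at 58.2, and the STH pairs lay between 50.3 and 78.7. This measure grows with the counts, so pairs of unlike library size are only roughly comparable.

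Wool fibre is built from keratins and keratin-associated proteins that are rich in cysteine and are cross-linked by disulfide bonds. A cell obtains cysteine as cystine through an exchanger made of SLC7A11, the transporting light chain, and SLC3A2, the heavy chain, or makes it from homocysteine by transsulfuration with CBS and CTH. Cysteine is then used for protein, oxidised by CDO1, or joined to glutamate by GCLC with its modifier GCLM and to glycine by GSS to form glutathione, while TXNRD1 keeps thioredoxin reduced and QSOX1 makes disulfide bonds in secreted proteins.

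With edgeR's quasi-likelihood test and Benjamini-Hochberg adjustment over all tested genes, 0 of the 10 genes differed between the breeds by more than 1.5-fold in either direction with an adjusted p below 0.05. The same was true of 0% of all tested genes. At an unadjusted p under 0.05 there were again 0 of the 10, against 18% of all tested genes. With single sheep left out that share lay between 7.34%, without STH XW5, and 30.3%, without SM 128, with 10.7% without SM 30034, 11.3% without SM 30126, 12.5% without STH XW8 and 15.1% without STH XW3. The likelihood ratio test of edgeR, DESeq2 and limma-voom also called 0 of the 10 at the thresholds. The likelihood ratio test called 2.3% and DESeq2 2.89% of all tested genes, while limma-voom called 0 of them. The values of SM and STH sheep overlapped in each of the 10 genes, whereas they did not overlap in 25.6% of all tested genes. The log2 fold changes of SM over STH (log2FC) lay between -0.60 for CDO1 and 0.31 for SLC3A2, with a median of 0.10 against 0.018 over all tested genes. They were positive for 6 genes and negative for 4. Because whole skin was sequenced, fewer cells of a type and less RNA per cell cannot be told apart in any of these values.

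**Figure D1:**
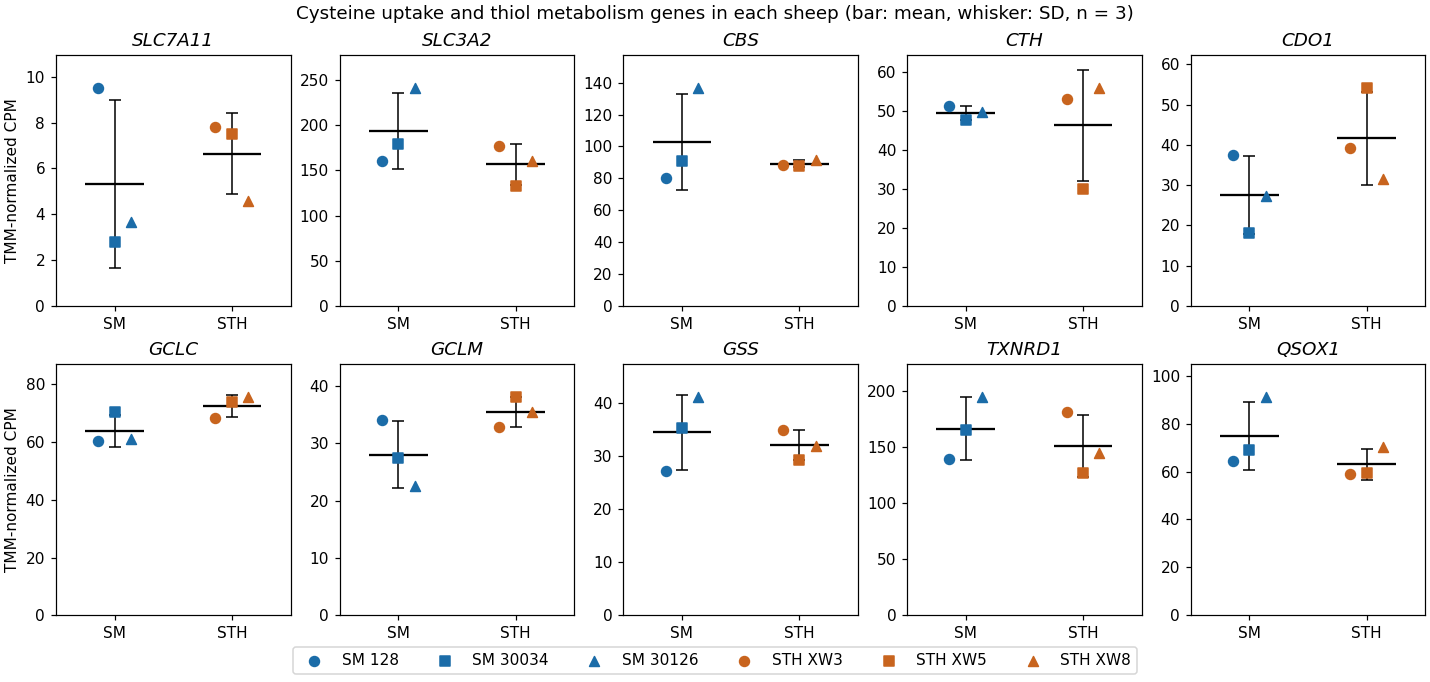
TMM-normalized CPM (vertical axes, from 0) of the 10 genes in 3 SM and 3 STH sheep; points are single sheep, bars are breed means and whiskers SDs. The breeds overlap in every panel, and the sheep of a breed spread widely for SLC7A11, from 2.81 to 9.52 CPM in SM.

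Levels of different genes were compared by RPKM, the count scaled by exon length and library size. SLC3A2 was the most abundant of the 10, with 42.5 to 82.0 RPKM over the 6 sheep, and SLC7A11 the least, with 0.244 to 0.791 RPKM. The heavy chain was thus on average 124-fold above its light chain partner, and it lies above 94.8% of all tested genes in its median RPKM, while SLC7A11 lies above 16.0%. SLC3A2 also serves as the heavy chain of other amino acid transporters. Between these ends followed TXNRD1 with a mean of 28.0, CBS with 25.2, QSOX1 with 17.9, CTH with 17.4, CDO1 with 15.6, GCLC with 12.6, GSS with 6.08 and GCLM with 4.15 RPKM. Within each sheep SLC3A2 was above TXNRD1, CBS above QSOX1, GCLC above GSS, GSS above GCLM and GCLM above SLC7A11. The order was not kept by every sheep for TXNRD1 over CBS (4 of 6 sheep), QSOX1 over CTH (3 of 6), CTH over CDO1 (5 of 6) and CDO1 over GCLC (5 of 6), so that these neighbours did not differ beyond the spread between sheep.

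**Figure D2:**
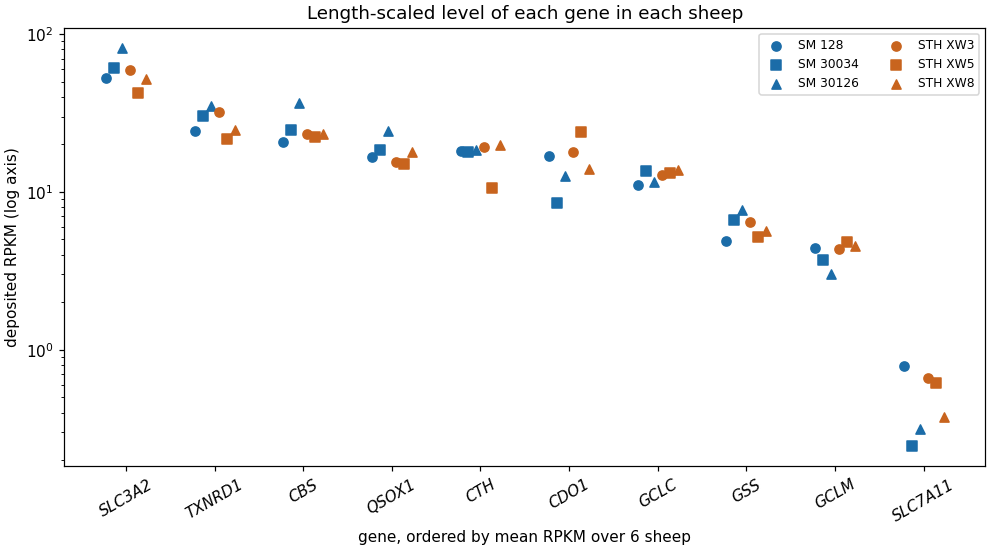
Deposited RPKM (vertical log axis) of the 10 genes in each of the 6 sheep, ordered by their mean. SLC3A2 lies between 42.5 and 82.0 RPKM, the middle genes overlap, and SLC7A11 lies below 1 RPKM in every sheep.

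Cystine uptake was examined first. SLC7A11, at 19076069 to 19278815 on chromosome 17 (build Oar_v4.0, as for all positions here), had 9.52, 2.81 and 3.67 CPM in SM 128, 30034 and 30126, and 7.81, 7.51 and 4.60 CPM in STH XW3, XW5 and XW8. SM 128 was the highest of all 6 sheep while the other SM sheep were the lowest. The means were 5.33 ± 3.65 for SM and 6.64 ± 1.77 CPM for STH (SD, n = 3 each), a log2FC of -0.32 (SE 0.45, 95% interval -1.36 to 0.71, adjusted p = 0.686 by the quasi-likelihood test).

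Without SM 128 its log2FC was -1.04 (unadjusted p = 0.0122, adjusted p = 0.0844), without SM 30034 it was -0.015 and without SM 30126 -0.10. Without STH XW3, XW5 and XW8 in turn it was -0.19, -0.23 and -0.53. When each library's trend on exon length was removed, it was -0.13. Melanocytes are a skin cell type that uses SLC7A11, and the 6 melanocyte markers (PMEL, TYR, TYRP1, DCT, MLANA and SLC45A2) summed to 5.04 to 6.71 CPM in SM and 4.22 to 5.59 CPM in STH sheep. SM 128 had the highest of these sums as well, at 6.71 CPM. SM 30034, however, had a sum of 6.27 CPM, above all STH sheep, with the lowest SLC7A11. STH XW5 had the lowest sum, 4.22 CPM, with 7.51 CPM of SLC7A11. None of the 6 markers was at 0 in all sheep. Of the 4 with enough counts to test, 1 was higher in SM at an unadjusted p under 0.05. This was SLC45A2, at 0 to 0.463 CPM over the 6 sheep. The part of these markers in SLC7A11 was not tested. The 5 genes whose log2 CPM followed SLC7A11 most closely over the 6 sheep were CKAP2L, RIMS4, APH1B, SLC30A7 and GLTSCR1L, with Pearson r from 0.967 to 0.975, as a description over 6 points drawn from 15319 genes.

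SLC3A2, on chromosome 21 from 40449850 to 40480952, had 160, 179 and 242 CPM in SM 128, 30034 and 30126, and 177, 132 and 161 CPM in STH XW3, XW5 and XW8. SM 30126 stood above the other sheep, and SM 128 was just below STH XW8. The log2FC was 0.31 (SE 0.19, 95% interval -0.13 to 0.74, adjusted p = 0.382). It was 0.13 without SM 30126 and 0.20 without STH XW5. Within single sheep the log2 ratio of SLC7A11 to SLC3A2, by RPKM, was -6.05, -7.97 and -8.02 in SM 128, 30034 and 30126, and -6.48, -6.12 and -7.10 in STH XW3, XW5 and XW8. This ratio does not depend on the scaling between libraries, and its breed means were -7.35 ± 1.12 for SM and -6.57 ± 0.499 for STH (SD, n = 3 each), with SM 128 above all STH sheep. The difference of SM minus STH was -0.78, and it was -1.43 without SM 128, -0.47 without SM 30034 and -0.44 without SM 30126.

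The transsulfuration genes both lie on chromosome 1. CBS, the first enzyme of the route, from 261133034 to 261153763 on the minus strand, had 80.1, 91.2 and 137 CPM in SM 128, 30034 and 30126, and 88.3, 87.8 and 91.6 CPM in STH XW3, XW5 and XW8. The STH sheep were close together, with an SD of 2.31% of their mean, whereas the SM sheep spread to either side of them, with an SD of 29.3%. The log2FC was 0.20 (SE 0.20, 95% interval -0.25 to 0.66, adjusted p = 0.563). It was 0.35 without SM 128 and -0.046 without SM 30126. CTH, which splits cystathionine to release cysteine, from 45703719 to 45726932, showed the reverse pattern. It had 51.2, 47.7 and 49.7 CPM in the SM sheep and 53.1, 30.02 and 56.0 CPM in the STH sheep, where XW5 alone was low. Its log2FC was 0.096 (SE 0.23, 95% interval -0.42 to 0.61, adjusted p = 0.821), and it was -0.14 without XW5, 0.20 without XW3 and 0.25 without XW8.

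CDO1, on chromosome 7 from 4421094 to 4432401 on the minus strand, encodes cysteine dioxygenase, which starts the oxidation of cysteine towards sulfate and taurine. It had 37.5, 18.0 and 27.2 CPM in SM 128, 30034 and 30126, and 39.3, 54.2 and 31.4 CPM in STH XW3, XW5 and XW8. SM 128 lay within the STH range and the other SM sheep below it. The means were 27.6 ± 9.73 (SD, n = 3) and 41.6 ± 11.6 CPM (SD, n = 3), a log2FC of -0.60 (SE 0.29, 95% interval -1.25 to 0.059), or 0.661 times the STH level. This was the largest of the 10 differences, larger in size than that of 81.1% of all tested genes, and its adjusted p was 0.298 (unadjusted p = 0.0694). The unadjusted p was under 0.05 with DESeq2 (adjusted p = 0.238) and with limma-voom (adjusted p = 0.241). It was also under 0.05 in the quasi-likelihood test without SM 128 (log2FC -0.88, adjusted p = 0.0714) and without STH XW8 (-0.76, adjusted p = 0.400). In the same direction, 1903 of the 15320 tested genes had an unadjusted p under 0.05 with DESeq2 and 2053 with limma-voom. Without SM 128 the share was 17.6% of all tested genes, and without STH XW8 the number was 1164 of 15181. Without SM 30034 the log2FC of CDO1 was -0.37, and without STH XW5 -0.36.

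CDO1 is also a gene of adipose tissue, and the adipocyte markers ADIPOQ, FABP4, PLIN1, CIDEC and LEP summed to 30.8, 65.8 and 40.3 CPM in SM 128, 30034 and 30126 and to 139, 174 and 140 CPM in STH XW3, XW5 and XW8. The sum was mostly FABP4, which capillary endothelium also makes, while ADIPOQ was between 0.198 and 8.70 CPM and LEP at 0 in 3 of the 6 sheep. XW5 was the highest sheep both for the sum and for CDO1. SM 128, however, had the lowest sum and the highest CDO1 of the SM sheep. Of the 4 tested adipocyte markers, 1, FABP4, was higher in STH and 0 in SM sheep at an unadjusted p under 0.05. The log2FC was negative for FABP4 (-1.84) and ADIPOQ (-0.88) and positive for PLIN1 (0.14) and CIDEC (0.40). None of the 5 markers was at 0 in all sheep, and their part in CDO1 was not tested. The log2 ratio of CDO1 to CTH by RPKM was -0.12, -1.08 and -0.54 in SM 128, 30034 and 30126, and -0.11, 1.18 and -0.51 in STH XW3, XW5 and XW8, so that only in XW5 was the oxidising enzyme above the cysteine-releasing enzyme. The difference of SM minus STH was -0.77 with all sheep and -0.27 without XW5.

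Of the 3 genes of glutathione synthesis, GCLC, the catalytic subunit of glutamate-cysteine ligase, on chromosome 20 from 7077904 to 7122848, had 60.3, 70.4 and 61.0 CPM in SM 128, 30034 and 30126, and 68.4, 73.8 and 75.7 CPM in STH XW3, XW5 and XW8. Over the 6 sheep its highest value was 1.25 times its lowest, the narrowest range of the 10 genes, and SM 30034 was the single SM sheep within the STH range. The log2FC was -0.18 (SE 0.13, 95% interval -0.49 to 0.12, adjusted p = 0.439), and -0.077 with the exon length trend removed.

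GCLM, the modifier subunit, on chromosome 1 from 70159999 to 70181489 on the minus strand, had 34.1, 27.4 and 22.6 CPM in the SM sheep and 32.8, 38.1 and 35.5 CPM in the STH sheep. SM 128 again lay within the STH range and the other SM sheep below it. The log2FC was -0.34 (SE 0.18, 95% interval -0.75 to 0.067, adjusted p = 0.323), and -0.51 without SM 128 (unadjusted p = 0.0170, adjusted p = 0.0973). It was -0.19 without SM 30126 and -0.18 with the exon length trend removed. The log2 ratio of GCLM to GCLC by RPKM was -1.32 in SM 128, above the -1.59 to -1.45 of the STH sheep, and -1.86 and -1.93 in SM 30034 and 30126, below them. The difference of SM minus STH was -0.17, and it was -0.36 without SM 128 and -0.057 without SM 30126.

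GSS, which completes glutathione, on chromosome 13 from 63678516 to 63703163 on the minus strand, had 27.1, 35.1 and 41.1 CPM in the SM sheep and 34.8, 29.2 and 31.9 CPM in the STH sheep. The STH sheep lay inside the SM range, and the log2FC was 0.11 (SE 0.18, 95% interval -0.30 to 0.52, adjusted p = 0.742). It was 0.25 without SM 128, -0.025 without SM 30126, 0.046 without STH XW5 and 0.23 with the exon length trend removed.

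TXNRD1, a selenoprotein that passes electrons from NADPH to thioredoxin, on chromosome 3 from 172726468 to 172824970, had 139, 165 and 195 CPM in SM 128, 30034 and 30126, and 181, 127 and 145 CPM in STH XW3, XW5 and XW8. Sheep of both breeds were found at either end, and the log2FC was 0.14 (SE 0.18, 95% interval -0.28 to 0.56, adjusted p = 0.667). It was 0.25 without SM 128, 0.026 without SM 30126, 0.29 without STH XW3, 0.030 without STH XW5 and 0.26 with the exon length trend removed. The 3 other genes that the files place within the span of TXNRD1 had a count of 0 and an RPKM of 0 in every sheep, and no other gene overlapped any of the remaining 9. QSOX1, which forms disulfide bonds in proteins of the secretory route, on chromosome 12 from 59349924 to 59390457, had 64.5, 68.9 and 91.1 CPM in the SM sheep and 59.0, 59.3 and 70.4 CPM in the STH sheep. STH XW8 was above both SM 128 and SM 30034, and the log2FC was 0.25 (SE 0.17, 95% interval -0.14 to 0.64, adjusted p = 0.412). It was 0.097 without SM 30126.

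The single sheep differed in which of the 10 genes were high. SM 30126 was the highest of the 6 sheep in 5 genes, SLC3A2, CBS, GSS, TXNRD1 and QSOX1, and the lowest in GCLM. STH XW5 was the lowest in SLC3A2, CTH and TXNRD1 and the highest in CDO1 and GCLM. SM 128, which had the smallest library, was the lowest in CBS, GCLC and GSS and the highest in SLC7A11. Markers of the wool fibre cortex and matrix (KRT36, KRTAP1-1, KRTAP6-1, HOXC13 and LEF1) summed to 1534, 1546 and 2732 CPM in SM 128, 30034 and 30126 and to 1299, 731 and 1065 CPM in STH XW3, XW5 and XW8. SM 30126 had the highest and XW5 the lowest of these sums. SM 128, however, had a sum above every STH sheep and was the lowest in CBS, GCLC and GSS. XW5 was not the lowest sheep in CBS, GSS or QSOX1. Higher in SM sheep were 3 of the 5 wool markers at an unadjusted p under 0.05. None of these markers was at 0 in all sheep, and their part in the 10 genes was not tested.

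Leaving out SM 128 changed the comparison as a whole. The quasi-likelihood test then called 1175 genes, or 7.73% of those tested, but still 0 of the 10. At an unadjusted p under 0.05, SLC7A11, CDO1 and GCLM were then higher in STH sheep, as were 17.6% of all tested genes, while SM sheep were higher in 0 of the 10, against 12.7%. In those 5 sheep the breeds did not overlap for SLC7A11, CDO1 and GCLM, with STH higher, a pattern seen in 25.1% of all tested genes, nor for SLC3A2 and GSS, with SM higher, seen in 24.6%.

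**Figure D3:**
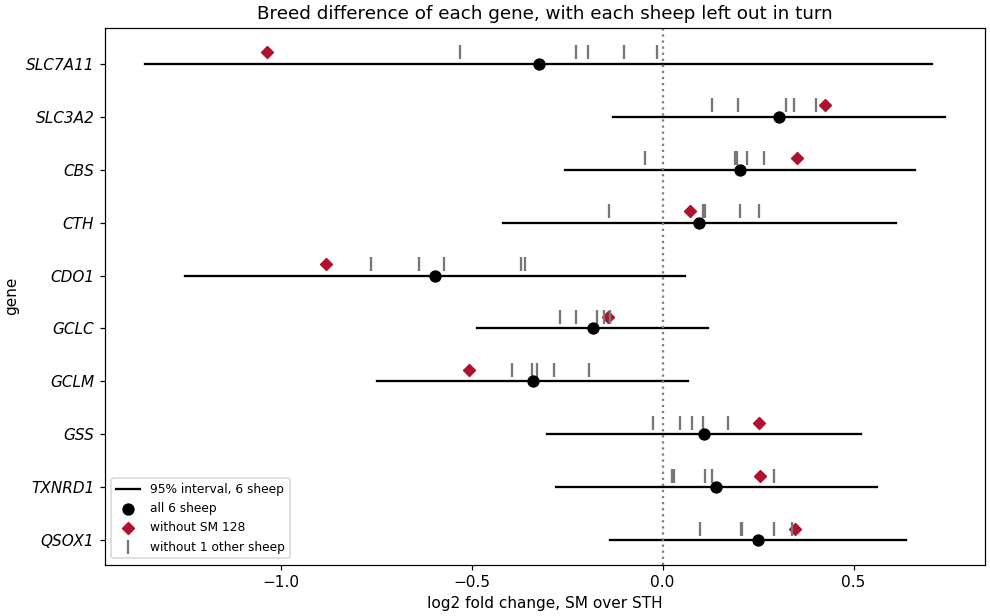
Log2 fold change of SM over STH (horizontal axis) for each of the 10 genes with all 6 sheep (black points, lines are 95% intervals), without SM 128 (red diamonds) and without each other sheep (grey ticks). All intervals include 0, and SLC7A11 shifts from -0.32 to -1.04 without SM 128.

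Marker sums of the other skin cell types overlapped between the breeds for fibroblasts, immune cells and endothelium and did not overlap for keratinocytes, sebaceous gland and smooth muscle. The keratinocyte markers KRT5, KRT10 and DSG1 were present at 6452 to 7507 CPM in SM and 7674 to 11842 CPM in STH sheep, the 6 fibroblast markers at 14610 to 20937 and 16993 to 20971 CPM, and the 5 immune markers at 81.6 to 109 and 97.1 to 107 CPM. The 5 sebaceous gland markers summed to 1330 to 2209 CPM in SM and 1018 to 1081 CPM in STH sheep, and the 3 endothelial markers to 428 to 558 and 259 to 434 CPM. The 4 smooth muscle markers summed to 515 to 562 and 992 to 1164 CPM. At an unadjusted p under 0.05, all 4 of these, 2 of 3 keratinocyte and 1 of 6 fibroblast markers were higher in STH sheep, and 4 of 5 sebaceous, 2 of 3 endothelial and 1 of 5 immune markers in SM sheep. Their part in the 10 genes was not tested.

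The wider thiol network was described by 8 lists with 115 genes in all, of which 108 were in the files under these symbols and 104 were tested. By the quasi-likelihood test 0 of the 104 passed the thresholds. Of the 104, 11 were higher in SM and 8 in STH sheep at an unadjusted p under 0.05, against 7.21% and 10.8% of all tested genes. These numbers became 25 and 8 without SM 128, against 12.7% and 17.6% of all tested genes in that run. They were 8 and 4 without SM 30034, and 10 and 4 without SM 30126. They were 9 and 9 without STH XW3, 7 and 3 without STH XW5, and 5 and 4 without STH XW8. In either direction, the shares of all tested genes in these runs were 10.7%, 11.3%, 15.1%, 7.34% and 12.5%, in the same order. The breeds did not overlap for 13 genes with SM higher and 10 with STH higher, against 12.3% and 13.3% of all tested genes. Both the likelihood ratio test and DESeq2 called 3 of the 104, GLRX and TKT as higher in SM and GGCT as higher in STH sheep, against 2.3% and 2.89% of all tested genes for these tests. All 3 genes are also in the study's own list of differing genes, picked from these libraries, so their calls are not independent of that list.

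**Figure D4:**
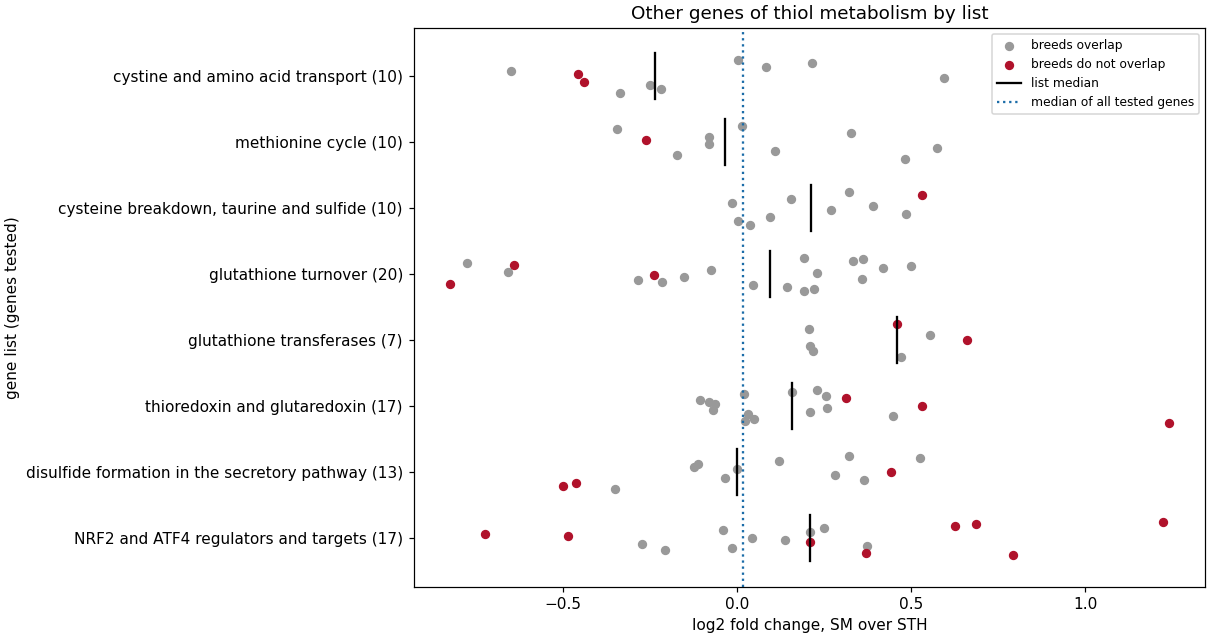
Log2 fold change of SM over STH (horizontal axis) of 104 genes in 8 lists (vertical axis, number tested in parentheses); red points are genes whose breeds do not overlap, black bars are list medians and the dotted line is the median of all tested genes. The glutathione transferases lie to the right of 0 in 7 of 7 genes, and the other lists spread to both sides.

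Amino acid transporters, with 10 tested genes, centred on a log2FC of -0.24 at the median, with 2 higher in STH and 0 in SM sheep at an unadjusted p under 0.05. SLC38A2, a transporter of small neutral amino acids, had 220, 182 and 131 CPM in SM 128, 30034 and 30126, and 244, 263 and 225 CPM in STH XW3, XW5 and XW8, a log2FC of -0.46 (SE 0.20, adjusted p = 0.272), and -0.27 without SM 30126. SLC1A4, a neutral amino acid transporter that accepts cysteine, had 25.7, 31.0 and 36.6 CPM and 51.0, 37.8 and 37.7 CPM, a log2FC of -0.44 (SE 0.19, adjusted p = 0.274), and -0.28 without STH XW3. In the methionine cycle, with 10 tested genes and a median of -0.034, there were 0 at an unadjusted p under 0.05 in either direction. MAT2A, which makes S-adenosylmethionine, had a mean of 457 in SM and 549 CPM in STH sheep, did not overlap between the breeds, and had a log2FC of -0.26 (SE 0.14, adjusted p = 0.316).

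Among 10 tested genes of cysteine breakdown, taurine and sulfide, 9 had a positive log2FC, the median was 0.21, and 1, SUOX, had an unadjusted p under 0.05. SUOX, the sulfite oxidase that ends the oxidative route, had 30.1, 33.9 and 50.3 CPM in SM 128, 30034 and 30126, and 23.5, 28.2 and 27.3 CPM in STH XW3, XW5 and XW8, a log2FC of 0.53 (SE 0.21, adjusted p = 0.260), and 0.29 without SM 30126, where its unadjusted p was no longer under 0.05. CDO1, at the start of that route, had the opposite sign.

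In glutathione turnover, with 20 tested genes and a median of 0.094, 3 were higher in STH and 0 in SM sheep at an unadjusted p under 0.05. These were GGCT, GPX8 and, outside the naming rule and named after its values were seen, GSR. The breeds overlapped in GSR, which had a log2FC of -0.78 (SE 0.29, adjusted p = 0.256 by the quasi-likelihood test). GGCT, which releases the amino acids of gamma-glutamyl dipeptides during glutathione breakdown, had 29.2, 31.0 and 23.2 CPM in the SM sheep and 43.4, 53.7 and 50.9 CPM in the STH sheep. Each STH sheep was above each SM sheep, and the log2FC was -0.83 (SE 0.16, adjusted p = 0.183 by the quasi-likelihood test, 0.00499 by the likelihood ratio test and 0.00282 by DESeq2). GPX8, a peroxidase of the endoplasmic reticulum, had means of 19.0 in SM and 29.7 CPM in STH sheep, a log2FC of -0.64 (SE 0.21, adjusted p = 0.247).

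All 7 tested glutathione transferases had a positive log2FC, with a median of 0.46 and a range from 0.21 to 0.66, while 7873 of the 15320 tested genes were positive. Of 12 listed transferases, 8 were found under these symbols and 7 had enough counts to test. At an unadjusted p under 0.05, 3 of the 7 were higher in SM sheep, against 7.21% of all tested genes. These were GSTZ1, MGST3 and, outside the naming rule and named after its values were seen, MGST1, in which the breeds overlapped. GSTZ1, an enzyme of tyrosine breakdown, had means of 12.9 ± 0.759 for SM and 8.20 ± 1.47 CPM for STH (SD, n = 3 each), a log2FC of 0.66 (SE 0.19, adjusted p = 0.247). MGST3, a microsomal enzyme, had means of 438 ± 104 (SD, n = 3) and 318 ± 32.3 CPM (SD, n = 3), a log2FC of 0.46 (SE 0.19, adjusted p = 0.270), which was 0.27 without SM 30126 and 0.29 with the exon length trend removed, with an unadjusted p over 0.05 in both. How reads shared between similar transferase genes were counted was not tested.

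In the thioredoxin and glutaredoxin list, with 17 tested genes and a median of 0.16, there were 2 genes higher in SM and 0 in STH sheep at an unadjusted p under 0.05. GLRX, the glutaredoxin that removes glutathione from protein thiols, had 12.6, 16.5 and 20.4 CPM in SM 128, 30034 and 30126, and 10.1, 5.02 and 5.89 CPM in STH XW3, XW5 and XW8. The gap between SM 128 and STH XW3 was small beside the spread within SM sheep, and the log2FC was 1.24 (SE 0.30, adjusted p = 0.229 by the quasi-likelihood test, 0.0145 by the likelihood ratio test and 0.00851 by DESeq2). With the exon length trend removed it was 0.87, the lowest of all alternatives. PRDX5, a peroxiredoxin of mitochondria and peroxisomes, had means of 147 and 101 CPM, a log2FC of 0.53 (SE 0.21, adjusted p = 0.260), and 0.29 without SM 30126, with an unadjusted p over 0.05.

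Among 13 tested genes of disulfide formation in the secretory pathway the median was -0.0014, with 1 gene in each direction at an unadjusted p under 0.05. PDIA5, a disulfide isomerase, had a log2FC of 0.44 (SE 0.17, adjusted p = 0.255), and ERP44, which retains oxidoreductases in the early secretory route, -0.46 (SE 0.17, adjusted p = 0.255). ERO1B, an oxidase that recharges the isomerases, was low, with means of 3.95 in SM and 5.59 CPM in STH sheep, and had a log2FC of -0.50 (SE 0.25, adjusted p = 0.311).

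The list of NRF2 and ATF4 regulators and targets, transcription factors known to control SLC7A11 and the glutathione genes, had 17 tested genes and a median of 0.21. Higher in SM were 4 genes and higher in STH 2, at an unadjusted p under 0.05. NFE2L2, which encodes NRF2 itself, had 93.2, 71.9 and 50.3 CPM in SM 128, 30034 and 30126, and 97.1, 108 and 96.9 CPM in STH XW3, XW5 and XW8, a log2FC of -0.49 (SE 0.21, adjusted p = 0.277). SM 128 was again nearest to the STH sheep, and without it the log2FC of NFE2L2 was -0.72 (adjusted p = 0.0478). Without SM 30126 it was -0.27 and with the exon length trend removed -0.23, both with an unadjusted p over 0.05.

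NQO1, a quinone reductase and NRF2 target, had 4.96, 4.61 and 6.06 CPM in the SM sheep and 8.01, 7.72 and 10.1 CPM in the STH sheep, a log2FC of -0.73 (SE 0.22, adjusted p = 0.247). TKT, transketolase of the pentose phosphate route that supplies NADPH and also an NRF2 target, had the opposite sign. It had 306, 303 and 390 CPM in the SM sheep and 215, 195 and 210 CPM in the STH sheep, a log2FC of 0.69 (SE 0.15, adjusted p = 0.200 by the quasi-likelihood test, 0.0167 by the likelihood ratio test and 0.00471 by DESeq2). TRIB3, a pseudokinase induced by ATF4, was low, with means of 2.21 in SM and 0.949 CPM in STH sheep, and had a log2FC of 1.22 (SE 0.36, adjusted p = 0.247).

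**Figure D5:**
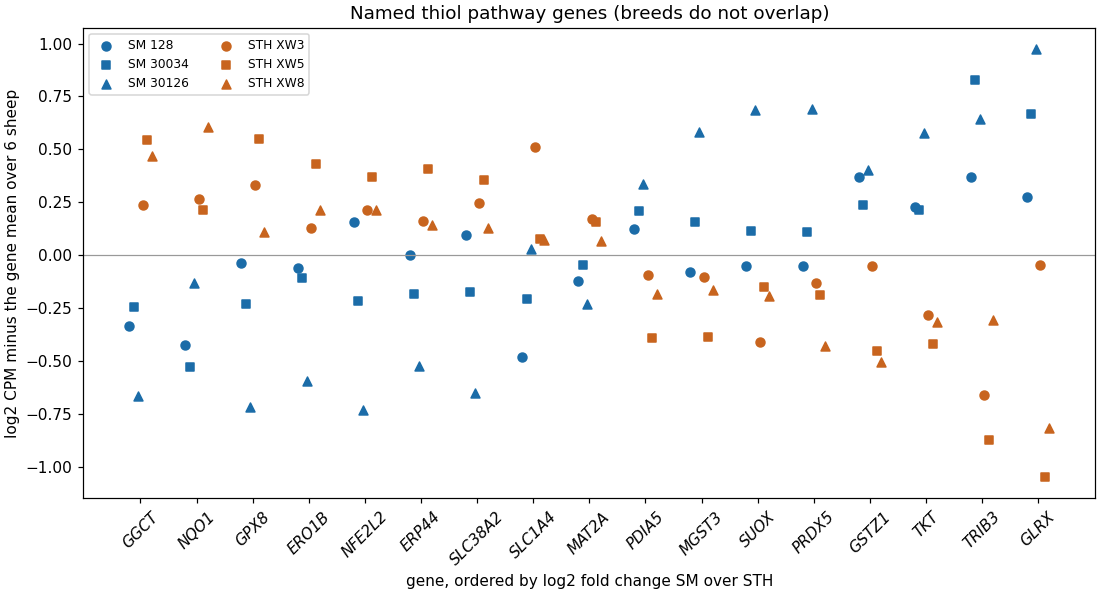
Log2 CPM of each sheep minus the gene's mean over the 6 sheep (vertical axis) for the 17 named genes of the wider network (horizontal axis), which were chosen because the breeds do not overlap. SM 30126 is farthest from the STH sheep in most of them, and GGCT, at a log2FC of -0.83, and GLRX, at 1.24, mark the ends.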

How the data were processed

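RNA of whole skin from 6 ewes was read in paired ends, with 1 library per ewe. Per the study's methods, the authors checked reads with FastQC and mapped them to Oar_v4.0 in CLC Genomics Workbench with default parameters. The authors deposited, for each library, a total count per gene without normalization and an RPKM. Where a gene had at least 5 counts, its ratio of count to RPKM was the same in all libraries after scaling (within a factor of 1.000001), as for a count divided by exon length and a library constant. A further 4291 genes, 0 of them among the 10 or the lists, had a count of 0 in every sheep but an RPKM above 0, and they did not enter the tests. The TPM and a score that the authors deposited as CPM were not used. The study's mapping summary takes reads mapped in pairs and in broken pairs as counted, and splits them into unique (exon, junction, intron, intergenic) and non-specific ones. How non-specific ones entered the gene counts, and whether strand was used, is not given in the sources used here. The 10 genes, the gene lists and the tests were chosen with earlier results of these data known.

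Breeds were assigned from the labels. Genes that reached 10 counts in 3 or more sheep were normalized by TMM and fitted with breed as the only term (estimateDisp, glmQLFit, glmQLFTest) in edgeR 4.0.16 and R 4.3.3. Thresholds were an adjusted p of 0.05 and a 1.5-fold change. The same fit gives no SE directly, so the SE was taken as the absolute log2FC divided by the square root of the test's F statistic. The 95% intervals were built from this SE and a t distribution with the total degrees of freedom of the test. CPM values are TMM-normalized. An exact permutation test (two-sided) of groups this small has a smallest p of 0.1 and was not run. From each list up to 2 genes per direction with the smallest unadjusted p among those without overlap were named, and the 5 genes most like SLC7A11 were taken by log2 CPM with a prior count of 2. Markers missing from the files were left out of the sums. Chromosome numbers were matched through the RefSeq gene table, which held 21630 of the 28394 identifiers. No promoter or protein sequence was used here. Alternatives were DESeq2 1.42.0, limma-voom (limma 3.58.1), the likelihood ratio test, other normalizations and filters, removal of a loess trend on exon length (span 0.5) and each sheep left out. All tests were tried on simulated counts.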

Additional observations from a re-analysis of the deposited data

How the results depend on the processing

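Over the 10 genes and 14 alternatives, 137 of 140 log2 fold changes kept their sign and stayed short of the thresholds. The exceptions were CBS at -0.046 and GSS at -0.025 without SM 30126, and CTH at -0.14 without STH XW5, and the cause was not tested. As each sheep was left out, CBS ranged from -0.046 to 0.35, CTH from -0.14 to 0.25 and GSS from -0.025 to 0.25. The number of the 10 genes called was 0 in every alternative run. Limma-voom, the other normalizations and the filter at 50 counts in 3 sheep called 0 of all genes too. So did the runs without STH XW5 and without STH XW8. At an unadjusted p under 0.05 it was 1 with DESeq2 and 1 with limma-voom, in both cases CDO1, and from 0 to 3 as each sheep was left out. Of all genes, DESeq2 called 443, the likelihood ratio test 352, the quasi-likelihood test without a filter 2 and with the exon length trend removed 8, while leaving out a sheep gave 0 to 1175, the highest without SM 128. Of the wider thiol lists DESeq2 called 3, the likelihood ratio test 3 and the fits with a sheep left out 0 to 5. The 5 without SM 128 were NFE2L2, GGCT, GLRX, TKT and TALDO1, the last of which was named after its values were seen. The other genes named by the rule kept their sign in all 238 values and passed the thresholds in 10. No normalization moved the median of all genes by over 0.1. No paired analysis was possible because the sheep labels pair no SM with an STH sheep. The 95% intervals were widest for SLC7A11 (-1.36 to 0.71) and narrowest for GCLC (-0.49 to 0.12). With 3 sheep per breed, a difference of any size within a gene's interval remains possible.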
